A study of Klebsormidium nitens with 4 samples.

Results

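Of the 17290 genes of *Klebsormidium nitens* in the expression table, 5 are described here as potential homologs of developmental regulators of *Arabidopsis*. They are the homeobox genes HB-51 (kfl00088_0250), PDF2 (kfl00396_0130) and HB-2 (kfl00862_0040), together with TFL1 (kfl00882_0020) and grf2 (kfl00186_0090). The members were taken by the identifiers that the study's text gives them. The study picked these genes as activated on the same libraries by fold change and adjusted p. Their direction, the size of their change and their calls are therefore not independent evidence. The values below describe them.

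*K. nitens* is a filamentous charophyte alga, and strain NIES-2285 was used in every culture. High light cultures received 1500 µE per square metre and second for 3 h, and low light cultures stayed at 50 µE per square metre and second, the irradiance at which all of them had been grown in bubbled photobioreactors with added CO2. There were 2 independent cultures per condition, each giving 1 stranded mRNA library. The filaments consist of cells without specialization and form neither flowers nor an epidermis, so the *Arabidopsis* roles given below name the homolog and not a function known in this alga.

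Homeobox genes encode transcription factors that bind DNA through the homeodomain. In *Arabidopsis*, HB-51, HB-2 and PDF2 belong to the homeodomain-leucine zipper proteins, a plant family in which a zipper next to the homeodomain joins the proteins into dimers. HB-51 takes part in meristem identity and leaf shape there, HB-2 in shade avoidance and the elongation that goes with it, and PDF2 in the identity of the outer cell layer. Growth regulating factors such as grf2 are transcription factors that promote cell proliferation and expansion in leaves. TFL1 differs from the other four in that its product does not bind DNA by itself. It belongs to the phosphatidylethanolamine-binding proteins and delays flowering through a partner transcription factor.

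In the gene annotation of assembly ASM70883v1, HB-51 spans positions 176138 to 180807 of scaffold 88, PDF2 positions 72115 to 82082 of scaffold 396, and HB-2 positions 16483 to 19740 of scaffold 862. TFL1 spans positions 5743 to 12335 of scaffold 882 and grf2 positions 53162 to 60426 of scaffold 186. Each of these genes lies on a different scaffold, together with other genes.

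Expression was given as FPKM, which counts the sequenced fragments of a gene relative to its exon length and to the size of the library, and allows genes to be compared within a library. It carries no read counts, so the depth behind a value is unknown here. The values summed to 620285 and 620013 FPKM in the high light libraries, and to 660467 and 657079 FPKM in the low light libraries. Across genes, the Pearson correlation of log2(FPKM + 1) was 0.976 between the high light replicates and 0.964 between the low light replicates. For the tests, values were put on the log2(FPKM + 1) scale and quantile normalized before a limma fit of light over all genes. Activated means a log2 fold change of 1 or more together with a Benjamini-Hochberg adjusted p under 0.05. Both thresholds are those of the study, but the numbers of activated and repressed genes in this fit differ from those it reports. Ratios are of mean FPKM as deposited.

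All 5 genes were higher in high light and all 5 were called activated, where 4.00% of all genes were. Both high light libraries lay above both low light libraries in each of the 5, an arrangement found in 18.5% of all genes. Both counts follow from how the study chose the genes, and nothing is read from them. HB-51, PDF2, HB-2 and grf2 lay below most expressed genes in both lights, PDF2 only just so in high light, and TFL1 was abundant in both. The calls depended on the libraries, and this was not particular to these genes. Calls over all genes also fell whenever a library was left out. Such a fit leaves a condition with a lone library, so its error rests on the replicates of the other condition. When either of the high light libraries was left out, limma called none of the 5 genes, with adjusted p of 0.157 to 0.256. When either of the low light libraries was left out, it called HB-2 and TFL1, with adjusted p of 0.0233 to 0.0274, and not HB-51, PDF2 and grf2, at 0.104 to 0.124.

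**Figure D1:**
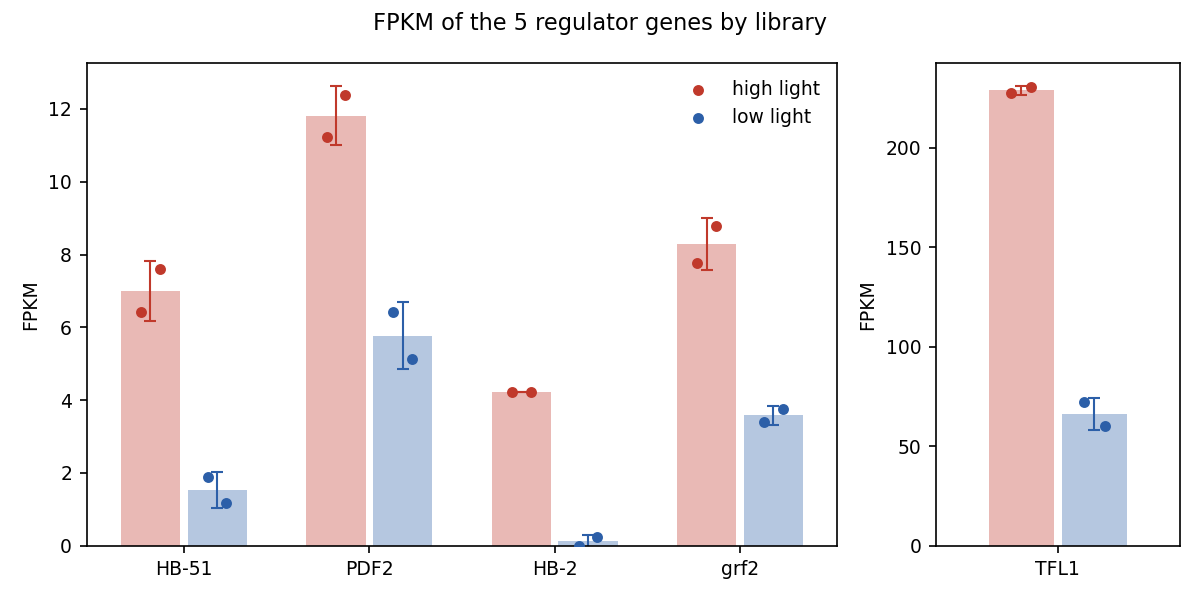
FPKM of the 5 regulator genes, with TFL1 on an axis of its own. Bars show the mean and error bars the SD of 2 libraries per condition, points show the single libraries, and high light stands left of low light. HB-2 reached 4.22 and 4.23 FPKM in high light, and 1 of its low light points is at 0.

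HB-51 had 6.42 and 7.59 FPKM in the high light libraries, against 1.88 and 1.18 FPKM in the low light libraries. The conditions did not overlap, and the low light replicates differed more from each other, relative to their mean, than the high light replicates. The means were 7.0 ± 0.828 FPKM in high light and 1.53 ± 0.492 FPKM in low light (SD, n = 2 each), a ratio of 4.58. Single pairs of libraries gave ratios of high to low light between 3.42 and 6.43. In limma the log2 fold change of HB-51 was 2.17 (standard error 0.192, adjusted p = 0.0409). HB-51 was not called when the pseudocount was 0.1 or normalization was left out, at limma adjusted p of 0.0575 and 0.0585. When genes whose mean stayed under 1 FPKM in both lights were left out, its limma adjusted p was 0.00718. That fit called 1212 genes activated, against 691 in the fit on all genes.

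PDF2 had 11.2 and 12.4 FPKM in the high light libraries, against 6.42 and 5.12 FPKM in the low light libraries. It was the most abundant of the homeobox genes in every library and the one with the smallest ratio, 2.05, between means of 11.8 ± 0.813 FPKM in high light and 5.77 ± 0.924 FPKM in low light (SD, n = 2 each). Single pairs of libraries ranged from 1.75 to 2.42. Its log2 fold change in limma was 1.26 (standard error 0.129), and its adjusted p of 0.0476 lay close to the threshold. It was not called when the pseudocount was 0.1, at a limma adjusted p of 0.0508, nor without normalization, where the log2 fold change was 0.93 and the adjusted p 0.0747. In the fit without genes whose mean stayed under 1 FPKM in both lights, which called more genes, its limma adjusted p was 0.00834.

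HB-2 had 4.22 and 4.23 FPKM in the high light libraries, against a listed 0 in low light replicate 1 and 0.246 FPKM in low light replicate 2. The high light replicates almost coincided, and no library in low light came near them. The ratio of the means was 34.4, but its denominator rests on 1 library, and against low light replicate 2 alone the ratio was 17.2 for both high light libraries. Against low light replicate 1 no ratio is given. The log2 fold change in limma was 2.51 (standard error 0.0787, adjusted p = 0.0172) with the pseudocount of 1. It was 5.21 with a pseudocount of 0.1, so its size depends on that choice. The call was kept, at a limma adjusted p of 0.0387. In the other planned fits that kept every library, the standard error of HB-2 was larger. It ranged from 0.0804 with a replicate block to 0.432 with the pseudocount of 0.1. Of the 691 activated genes, 9 were, like HB-2, listed at 0 in 1 low light library and above 0 in the other, and 41 were listed at 0 in both.

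TFL1 had 227 and 230 FPKM in the high light libraries, against 72.0 and 60.4 FPKM in the low light libraries. The means were 229 ± 2.15 FPKM in high light and 66.2 ± 8.19 FPKM in low light (SD, n = 2 each). Their ratio was 3.46, and single pairs of libraries lay between 3.16 and 3.82. Its log2 fold change in limma was 1.73 (standard error 0.0918, adjusted p = 0.0254). The mean of TFL1 was 163 FPKM higher in high light, whereas the means of the other four were 4.10 to 6.05 FPKM higher.

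The gene grf2 had 7.78 and 8.79 FPKM in the high light libraries, against 3.40 and 3.76 FPKM in the low light libraries. Both pairs of replicates were close. The means were 8.28 ± 0.715 FPKM in high light and 3.58 ± 0.255 FPKM in low light (SD, n = 2 each). Their ratio was 2.31, in a range of 2.07 to 2.58 over pairs of libraries. The log2 fold change of grf2 in limma was 1.41 (standard error 0.0996, adjusted p = 0.0337), and without normalization it was 1.02 and still called, with an adjusted p of 0.0407.

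Within each library the 5 genes had the same order, with TFL1 highest, followed by PDF2, grf2, HB-51 and HB-2. TFL1 made up 88.5% and 87.5% of their summed FPKM in high light, and 86.0% and 85.4% in low light. Its level was 20.2 and 18.6 times that of PDF2, the next gene, in high light, and 11.2 and 11.8 times in low light. HB-51 and HB-2 lay closer to PDF2 in high light than in low light. PDF2 was 1.75 and 1.63 times HB-51 in high light, and 3.42 and 4.33 times HB-51 in low light, and it was 2.66 and 2.93 times HB-2 in high light but 20.8 times HB-2 in low light replicate 2. PDF2 and grf2 showed no such shift, as PDF2 was 1.45 and 1.41 times grf2 in high light, and 1.89 and 1.36 times grf2 in low light. Neighbours in the order were least separated for grf2 and HB-51 in high light, where the lower grf2 library, at 7.78 FPKM, was barely above the higher HB-51 library, at 7.59 FPKM. With 2 libraries per condition an exact two-sided permutation test of 1 such difference cannot go below p = 0.333, so none was run.

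The homeobox genes were set against TFL1 and grf2 by their place among the genes with an FPKM above 0 in the same library. HB-51 stood at percentiles 31.1 and 34.0 in high light, and 6.31 and 3.87 in low light. PDF2 stood at 45.5 and 47.4 in high light, and 24.6 and 20.1 in low light. HB-2 was at 22.1 and 21.5 in high light, and at 0.920 in low light replicate 2. In both lights, most expressed genes thus lay above each of the homeobox genes. TFL1 was at 96.2 in both high light libraries, and at 86.3 and 84.3 in low light. The gene grf2 was at 35.5 and 37.9 in high light, and at 12.5 and 14.6 in low light, between HB-51 and PDF2. By level, TFL1 thus stood apart, and grf2 lay within the span of the homeobox genes.

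**Figure D2:**
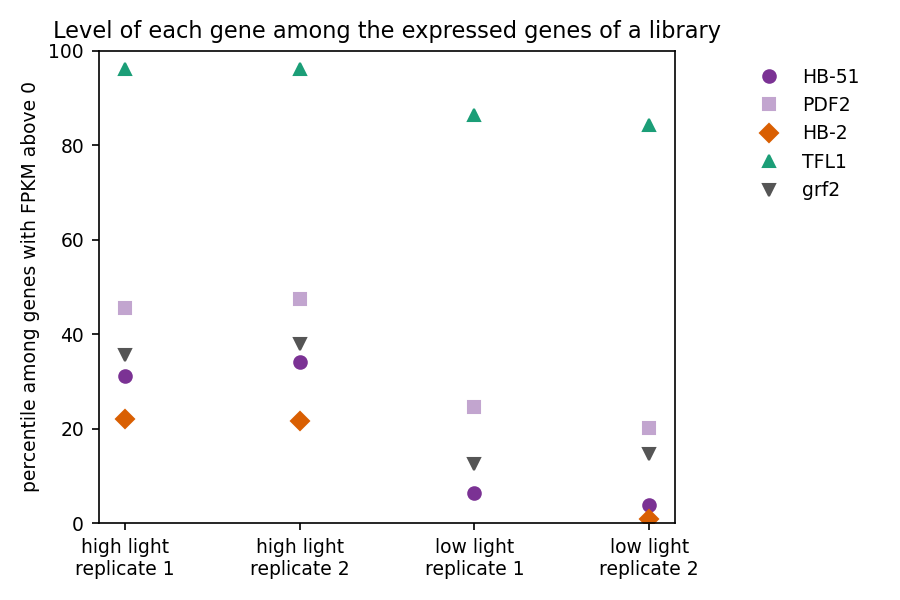
Percentile of each regulator gene among the genes with an FPKM above 0 in the same library, for the high light libraries on the left and the low light libraries on the right. TFL1 is at 84.3 or more in every library, the other genes are at 47.4 or less, and HB-2 has no point in low light replicate 1, where it is listed at 0.

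The fold changes did not separate the homeobox genes from TFL1 and grf2. HB-2 had the highest log2 fold change of the 5 and PDF2 the lowest under each of the 4 scalings tried, so that homeobox genes stood at both ends. With the pseudocount of 1, the order of HB-51 and TFL1 turned with the scaling. HB-51 minus TFL1 was 0.44 with quantile normalization, 0.37 with cyclic loess, -0.11 without normalization and -0.16 with median scaling. The pseudocount also mattered, as HB-51 had 2.99 and TFL1 1.75 with a pseudocount of 0.1 and quantile normalization. Their ratios of mean FPKM, which hold no pseudocount, were 4.58 and 3.46. After quantile normalization, HB-2 ranked 92 and HB-51 ranked 126 by log2 fold change among the 691 activated genes. TFL1 ranked 239, grf2 377 and PDF2 481. These ranks rest on the pseudocount of 1, which lowers the log2 fold changes of genes at low FPKM. Ratios of mean FPKM were ranked over the 11119 genes above 0 in low light with a mean of at least 1 FPKM in either light. There HB-2, whose ratio rests on 1 low light library, stood at percentile 99.91. HB-51 stood at 98.57, TFL1 at 97.63, grf2 at 93.92 and PDF2 at 91.75. By level in high light, TFL1 ranked 90 among the activated genes and the others between 553 and 646, and the median activated gene had 38.9 FPKM. Of the 10 differences in log2 fold change between 2 of the regulator genes, 8 kept 1 sign over all 4 pairs of a high light with a low light library after quantile normalization, and 7 of them, all but HB-51 against TFL1, had that sign under the other scalings too. HB-51 exceeded PDF2 by 0.92 on the log2 scale (range 0.82 to 1.01 over the pairs of libraries). The sign varied between HB-51 and HB-2, with a range of -0.70 to 0.03, and between PDF2 and grf2, with a range of -0.39 to 0.08.

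The background share of activated genes was also taken by level in low light. It was 3.58% of genes with a mean above 0 and below 1 FPKM in low light, the range of HB-2, and 5.46% of genes from 1 to below 10 FPKM, the range of HB-51, PDF2 and grf2. It was 5.93% of genes from 10 to below 100 FPKM, the range of TFL1.

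Quantile normalization moved TFL1 in another direction than the homeobox genes and grf2. It raised the log2 fold change by 0.50 for HB-51, 0.40 for grf2, 0.33 for PDF2 and 0.28 for HB-2, and changed that of TFL1 by -0.05. Over all genes the median change was 0.33 for the 559 genes above 0 and below 1 FPKM in low light, the range of HB-2, and 0.41 for the 3863 genes from 1 to below 10 FPKM, the range of HB-51, PDF2 and grf2. It was 0.14 from 10 to below 100 FPKM, the range of TFL1, which itself moved the other way, and -0.07 from 100 FPKM upwards. Over the genes with values above 0 in every library, the median log2 fold change was 0.0035 with quantile normalization and -0.22 with none. Under median scaling of FPKM and cyclic loess all 5 genes were called activated.

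**Figure D3:**
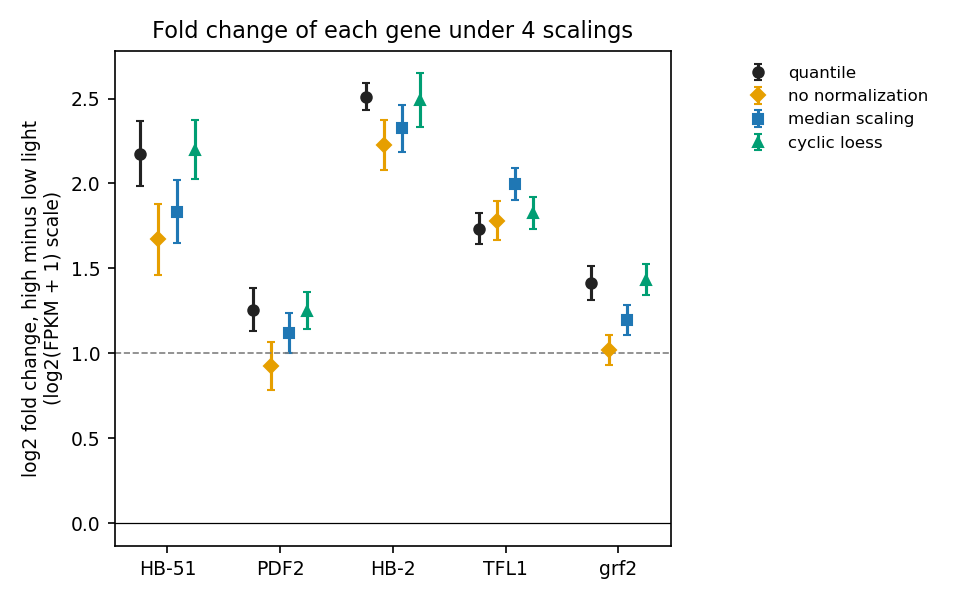
Log2 fold change of each regulator gene on the log2(FPKM + 1) scale, high light minus low light, under quantile normalization, no normalization, median scaling of FPKM and cyclic loess. Error bars are limma standard errors and the dashed line marks the threshold of 1, which PDF2 misses without normalization, at 0.93.

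The study describes the homologs of grf2 and HB-2 as acting in responses to plant hormones, and it also names a group of auxin genes, chosen on the same libraries. Auxin is a growth hormone of land plants, and in *Arabidopsis* HB-2 is linked to auxin responses. Of these 5 auxin genes, 4 were called activated, where 4.00% of all genes were, and nothing is read from this count. YUCCA (kfl00109_0340), named for an enzyme of auxin synthesis, had 115 and 106 FPKM in high light, against 5.68 and 7.82 FPKM in low light, and a log2 fold change of 4.03 (limma, adjusted p = 0.0271). AFB3 (kfl00434_0030), named for an auxin receptor, had a log2 fold change of 1.57, EXP (kfl00426_0080), an expansin that loosens cell walls, 1.76, and SMO (kfl00192_0040), a sterol oxidase, 1.29. PIN (kfl00071_0010), the auxin transporter, had 2.34 and 3.80 FPKM in high light, against 3.74 and 3.31 FPKM in low light, so the conditions overlapped, and the sign of its log2 fold change turned with the scaling, from 0.32 after quantile normalization to -0.17 without it. TFL1 and EXP had similar ratios, 3.46 and 3.53, at 229 and 315 FPKM in high light.

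The next annotated genes on either side of each regulator gene were also examined. Of the 10 neighbours, limma called 0 in either direction, where it called 7.51% of all genes. An unadjusted limma p below 0.05 was found for 4 of them, and for 5520 of all 17290 genes, so nothing is read from that count. The gaps to the 10 genes ranged from 615 to 2823 bases. The neighbours with the highest log2 fold changes were kfl00862_0030 before HB-2 and kfl00186_0100 after grf2. The neighbour of HB-2 had 19.2 and 22.6 FPKM in high light, against 7.80 and 10.2 FPKM in low light, and a log2 fold change of 1.37 (limma, adjusted p = 0.0755). The neighbour of grf2 had 47.8 and 53.5 FPKM in high light, against 21.6 and 25.5 FPKM in low light, and a log2 fold change of 1.17 (limma, adjusted p = 0.0591). Both were called when genes whose mean stayed under 1 FPKM in both lights were left out, at limma adjusted p of 0.0115 and 0.0103. That fit held 8 of the neighbours and called 10.8% of its genes activated, more than the fit on all genes. The neighbour after TFL1, kfl00882_0030, had 14.4 and 15.2 FPKM in high light, against 9.96 and 8.16 FPKM in low light, and a log2 fold change of 0.92. The genes before TFL1 and before grf2, kfl00882_0010 and kfl00186_0080, were listed at 0 in every library.

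HB-51 and PDF2 had neighbours with smaller or opposite differences. The gene kfl00088_0240 before HB-51 was listed at 0 and at 0.288 FPKM in high light, against 1.38 and 2.16 FPKM in low light (log2 fold change -0.76, limma adjusted p = 0.399), and kfl00088_0260 after it had a log2 fold change of 0.25. The gene kfl00396_0120 before PDF2 had 132 and 137 FPKM in high light, against 177 and 164 FPKM in low light, and its log2 fold change of -0.43, with a limma adjusted p of 0.0425, did not reach the threshold of -1. The genes kfl00396_0140 after PDF2 and kfl00862_0050 after HB-2 had overlapping conditions and log2 fold changes of 0.19 and 0.49. Their ratios of mean FPKM as deposited were 0.967 and 1.00. Whether reads were shared between any of these neighbours was not tested.

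**Figure D4:**
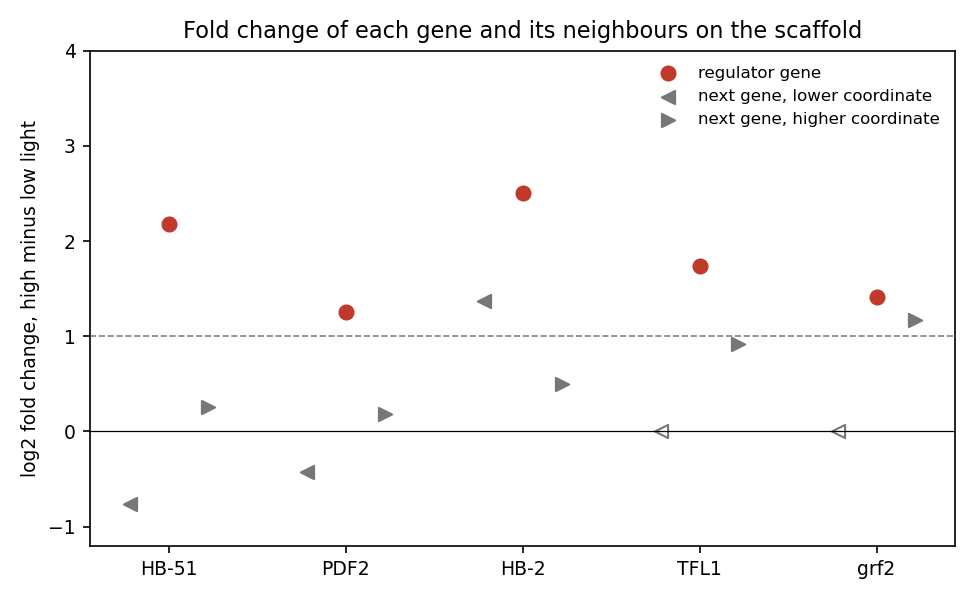
Log2 fold change, high light minus low light after quantile normalization, of each regulator gene (circle) and of the next annotated gene at lower (left triangle) and higher coordinates (right triangle). Open triangles are genes listed at 0 in all libraries, the dashed line marks the threshold of 1, and only the neighbours of HB-2 and grf2 at 1.37 and 1.17 lie above it.

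The genes most like each regulator over the 4 libraries were found by the Euclidean distance in quantile normalized log2(FPKM + 1), which reads level and response together. PDF2 had the closest companions, kfl00149_0090 at a distance of 0.0908 and kfl00030_0470 at 0.122, and 82 genes lay within 0.5 of it. For grf2 they were kfl00080_0210 at 0.127 and kfl00152_0180 at 0.155, with 38 genes within 0.5, and for TFL1 kfl00086_0110 at 0.140 and kfl00832_0060 at 0.179, with 17 genes. HB-51 and HB-2 had fewer genes near them, 6 and 4 within 0.5. The nearest to HB-51 were kfl00003_0570 at 0.319 and kfl00181_0135 at 0.394. The nearest to HB-2 was kfl00014_0250 at 0.231, a peroxiredoxin Q gene with 4.34 and 4.87 FPKM in high light and listed at 0 in both low light libraries, followed by kfl00363_0040 at 0.403. None of the regulator genes was among the 2 nearest of another.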

How the data were processed

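Libraries were mapped with HISAT2 and quantified with StringTie by the authors in the MARACAS pipeline, on version 1.0 of the *K. nitens* genome, after FastQC. Versions of these tools are not given in the sources used here. The authors deposited FPKM per gene and library, before their quantile normalization. FPKM hold no counts, so no interval that needs depth is given, and the replicate spread is the only error. Log2(FPKM + 1) was quantile normalized and fitted in limma 3.58.1 (R 4.3.3) over 17290 genes, without filter or block. The fit was tested on simulated data, with the same spread for every expressed gene. Changes were simulated only in genes with low light means above those of HB-2, HB-51 and grf2, so that test does not cover their levels. The pseudocount was not taken from the study. Figures were drawn with matplotlib 3.10.9. Members, lists and tests were chosen with earlier results of these data known. Named genes were the members, the auxin genes, the 2 nearest genes by distance and the adjacent genes. Identifiers were matched by locus number to ASM70883v1 for 16199 genes. That assembly holds the scaffold whose accession the study cites, and the study does not use its name. Lists of homeodomain, growth regulating factor and phosphatidylethanolamine-binding proteins by sequence were planned, but no protein sequences were used here. Whether near-identical copies shared reads was not tested. Alternatives covered the pseudocount, 2 filters, 3 scalings, a variance trend, a block, left-out libraries and both thresholds.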

Additional observations from a re-analysis of the deposited data

How the results depend on the processing

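In all 12 refits, every member kept its direction. Members called activated numbered 5 with either filter, median scaling, cyclic loess, a variance trend and the ratio threshold, 3 with a pseudocount of 0.1 and without normalization, and 0 at an adjusted p below 0.01. The lost calls were HB-51 (log2 fold change 2.99 and 1.67 in these settings) and PDF2 (1.41 and 0.93). Activated and repressed genes numbered 1212 and 1222 with a mean FPKM of at least 1, 1199 and 1216 when genes listed at 0 in every library were left out, and 28 and 25 at an adjusted p below 0.01, against 691 and 607. Without normalization they were 515 and 876.

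The replicate numbers are not stated to pair cultures, and deviations of same-numbered libraries correlated at -0.195 across 11201 genes. With a replicate block limma called 0 activated genes, 0 repressed genes and 0 members, although 4365 genes and all 5 members had an unadjusted p below 0.05, and log2 fold changes stayed at 2.17 for HB-51, 1.26 for PDF2, 2.51 for HB-2, 1.73 for TFL1 and 1.41 for grf2, at adjusted p of 0.0814 to 0.181. The crossed replicate block, chosen after seeing the data, also called 0 activated genes, 0 repressed genes and 0 members, with 4383 genes at an unadjusted p below 0.05.

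Leaving out 1 library left 141 to 180 activated and 75 to 242 repressed genes and 0 to 2 members. HB-2 and TFL1 kept their calls without either low light library, and no member was called without high light replicate 1 or 2, where limma gave 4 members an unadjusted p below 0.05. Log2 fold changes ranged from 2.02 to 2.42 for HB-51, 1.16 to 1.43 for PDF2, 2.41 to 2.56 for HB-2, 1.66 to 1.86 for TFL1 and 1.31 to 1.54 for grf2. In these fits the lone library is assumed to vary like the other condition. HB-51 in high light averaged percentile 56.6 over all genes and 28.4 over genes of at least 1 FPKM, against 32.5 over expressed genes. The alternatives planned for a homeodomain list were not run, as that list was not built.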
